A study of Mus musculus with 4 samples.

Results

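The ribosomal protein genes are the genes for the proteins of the cytosolic ribosome. They were picked by symbol: every gene named Rps or Rpl with a number and at most a short suffix, together with Rplp0, Rplp1, Rplp2 and Rpsa. The rule found 83 genes among the 32285 of the raw count table, 32 of the small subunit and 51 of the large subunit, and it reads gene symbols only.

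The data are single-cell RNA sequencing counts of CD45+ leukocytes from EO771 tumors, a mammary tumor line of C57BL/6 mice grown in the mammary fat pad of female mice. All 4 host mice carried the floxed Csf1r allele on a C57BL/6 background. The 2 Csf1rfl/fl mice had no Cre, and the 2 Lyve1CreCsf1rfl/fl mice also carried Cre under the Lyve1 locus, which removes the macrophage growth factor receptor gene from cells that have expressed the hyaluronan receptor LYVE-1, lymphatic endothelium among them. The tumors were untreated and were taken at a fixed volume, and the ages of the mice were not given in the sources used here. Viable CD45+ cells of each tumor were marked with a hashtag antibody, and each of the 2 Chromium runs pooled 1 tumor of each genotype.

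Each ribosome holds roughly equal numbers of most of its proteins, and most of them have a single active gene, so their messenger RNAs are made in a coordinated way and are among the most abundant in a cell. Translation of these messengers is controlled through a run of pyrimidines at their 5′ end, which lets growth signals raise the output of all of them together. Resting lymphocytes are known for a small cell body that holds few other messengers, and mature neutrophils for having ceased most ribosome production. A few members have a second gene with a related product, such as Rps27l beside Rps27 and Rpl22l1 beside Rpl22, whose use differs between cell types.

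Some of the sequences at annotated start sites show this feature. RefSeq promoter entries (GRCm38.p6, the assembly also called mm10) matched 63 of the 83 members by symbol, with 75 entries. A C at the annotated start followed by at least 4 bases that were C or T, read on the strand of the gene, was present in 13 of these entries (17.3%), of 6 small-subunit and 7 large-subunit genes, against 2.51% of all 32851 promoter entries and none of the 75 entries of mitochondrial ribosome genes. Annotated starts can be off by some bases, so a missing match says only that these letters are not at the annotated position. The windows of 30 bases around the start of genes that the results below turn on are given 5′ to 3′, with the pyrimidine run that begins at the start in capitals. The first 4 hold it and the last 4 do not.
Rpl38, chr11:114668565-114668594, plus strand: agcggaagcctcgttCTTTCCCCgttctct
Rps15a, chr7:118116133-118116162, minus strand: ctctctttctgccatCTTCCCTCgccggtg
Rps18, chr17:33955651-33955680, minus strand: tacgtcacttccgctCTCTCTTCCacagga
Rps27, chr3:90213634-90213663, minus strand: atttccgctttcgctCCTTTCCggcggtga
Rps9, chr7:3704026-3704055, plus strand: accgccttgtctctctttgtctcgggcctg
Rps27l, chr9:66946071-66946100, plus strand: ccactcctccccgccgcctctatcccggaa
Rpl22l1, chr3:28805493-28805522, plus strand: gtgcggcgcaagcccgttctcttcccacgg
Rpl3l, chr17:24727811-24727840, plus strand: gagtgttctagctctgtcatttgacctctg

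The count of a gene in a cell is its number of unique molecular identifiers (UMIs), 1 for each captured 3′ end, so counts of different genes were compared without division by gene length. The raw table held 53361 barcodes, of which 28429 (53.3%) were kept by the authors and are called kept here. The authors retained cells flagged as singlets with under 5% mitochondrial reads. As potential contaminants they took out clusters specific to 1 tumor (Lyve1CreCsf1rfl/fl, run 2), with the cells of every tumor in them. They describe these clusters as lymphocytes with strong ribosomal gene signal. They also name such signal as the reason a cluster was taken out, so the kept set may not be independent of these genes. Another 20142 barcodes with under 5% of UMIs from mitochondrial genes are called not kept, and 4764 above that limit were not used. Not kept cells can thus include droplets not flagged as singlets and cells of the clusters taken out. Each cell was given to the tumor with the higher hashtag of its run. The 4 tumors held 4771 to 8613 kept cells and 27686362 to 56349195 UMIs, with a median of 3718 to 4668 UMIs per cell, and 85.9% to 91.1% of kept cells had a UMI of Ptprc, the gene for CD45. Of the barcode sequences, 200 occurred in both runs and were treated as different cells. A higher hashtag under 3 times the lower one, as in a droplet with cells of both tumors, was seen in 0.218% to 5.89% of kept cells and 25.5% to 58.8% of not kept cells.

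Cell types were gated by 11 lists of 8 lineage genes, none of them a ribosomal protein gene. A cell entered the gate of the list with most genes detected, at least 3 and at least 2 times as many as the next list. In the monocyte and macrophage gate, Ly6c2 monocytes had at least 2 UMIs of Ly6c2 and under 2 of C1qa, C1qb and C1qc together. C1q macrophages had at least 4 UMIs of those C1q genes. Entry to either gate can thus depend on the depth of a cell. CD8, regulatory and CD4 T cells were set by detection of Cd8a or Cd8b1, Foxp3 and Cd4. The 11 lists left 33.1% of kept and 45.7% of not kept cells without a type. A tumor was used in a gate with at least 20 cells, except that the summed counts of Cd209a dendritic cells include 19 cells of the Csf1rfl/fl tumor of run 1. Copies of a ribosomal protein gene elsewhere in the genome are many and near identical, so reads that match both a gene and a copy could be lost or split, and differences between members in level are uncertain to that extent.

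Ribosomal protein genes held 34856818 UMIs, 21.7% of all UMIs of the kept cells, and among 10 gates compared in order their share was smallest in neutrophils and largest in CD8 T cells. In neutrophils the share was 5.67% (run 1) and 3.99% (run 2) without Cre and 5.43% (run 1) and 4.81% (run 2) with Lyve1Cre, a mean of 4.98% ± 0.754 (SD, n = 4 tumors). These values are of summed UMIs. The median neutrophil was lower in every tumor, with 3.05%, 3.32%, 3.28% and 3.44% in the same order. In CD8 T cells the summed share was 30.9%, 27.1%, 32.3% and 28.0% in that order, a mean of 29.6% ± 2.42. No tumor's neutrophils came near the value of any other cell type.

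Between these ends lay the other 8 of the 10 gates. C1q macrophages had 15.99% ± 1.65, Ly6c2 monocytes 16.3% ± 1.53 and mature dendritic cells 19.7% ± 2.13. Plasmacytoid dendritic cells had 21.9% ± 2.21, CD4 T cells 25.1% ± 2.89, regulatory T cells 25.1% ± 2.62, type 1 conventional dendritic cells (cDC1) 27.3% ± 1.98 and NK cells 27.5% ± 2.47. Neutrophils, monocytes, macrophages and the mature and plasmacytoid dendritic cells thus had smaller means than each lymphocyte gate when cells of all depths were summed, and cDC1 stood next to NK cells. Gamma delta T cells were left out of the order because their gate can share cells with the other T cell gates. With 20 to 54 cells a tumor they had 30.4% ± 2.77, above CD8 T cells in the mean and in every tumor. The stromal or tumor cell gate had 35.8% in the 1 tumor with enough cells, and Cd209a dendritic cells had 24.5% in the 3 tumors with enough cells.

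Within a tumor the order was steadier than the spread between tumors shows. Of the 9 steps between neighbours in the order of the 10 gates, 6 had the same sign in 4 of 4 tumors, each with p = 0.125 by a two-sided exact permutation test over tumors, the smallest value that 4 pairs allow. The order was set by the means over these same tumors. Every step thus has a positive mean by construction, and the p-values are not an independent test of the order. The remaining 3 steps did not differ beyond their spread. Ly6c2 monocytes exceeded C1q macrophages by 0.348 percentage points in the mean but in only 2 of 4 tumors (exact p = 0.625), regulatory T cells exceeded CD4 T cells by 0.0683 points in 2 of 4 (exact p = 0.875), and NK cells exceeded cDC1 by 0.201 points in 3 of 4 (exact p = 0.625).

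**Figure D1:**
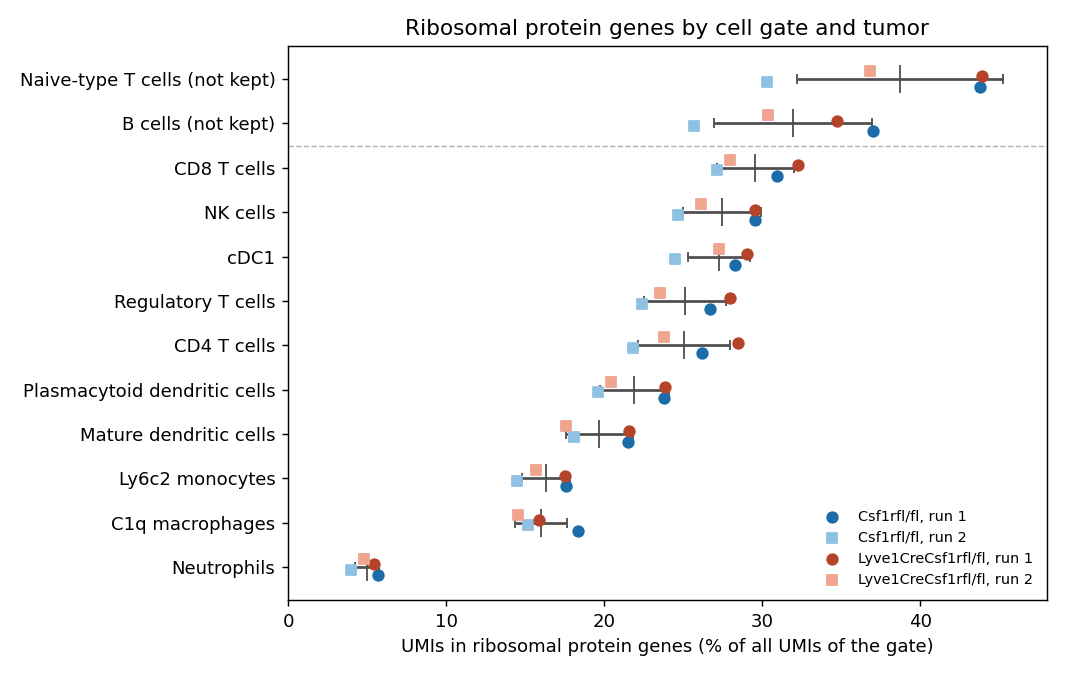
Percent of UMIs in the 83 ribosomal protein genes (x axis) by cell gate (y axis), a point per tumor, with the mean and SD over tumors in black. In summed UMIs of the kept cells neutrophils sit near 4.98% and CD8 T cells near 29.6%. In the kept cells the run 1 tumors lie to the right of the run 2 tumors. The median neutrophil, not drawn, had 3.05% to 3.44%.

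The share also moved with the number of UMIs per cell. In Ly6c2 monocytes it was 12.9%, 9.62%, 13.1% and 11.9% in cells with 2000 to 3000 UMIs and 18.6%, 15.6%, 19.1% and 16.6% in cells with 5000 to 10000 UMIs, in the tumor order above. The deeper monocytes were higher in every tumor. In neutrophils the share first fell and then climbed. It was 3.49% to 3.73% at 1000 to 2000 UMIs, 3.05% to 3.41% at 2000 to 3000 UMIs and 7.85% to 10.3% at 5000 to 10000 UMIs, and in every tumor the middle of these bins was the lowest. CD8 T cells were nearly level above 3000 UMIs, with 26.1% to 32.6% at 3000 to 5000 UMIs and 28.1% to 32.8% at 10000 to 20000 UMIs. Below that they climbed too, from a mean of 22.4% at 1000 to 2000 UMIs. NK cells climbed from a mean of 18.6% at 1000 to 2000 UMIs to 29.4% at 5000 to 10000 UMIs. Regulatory T cells climbed from 19.0% at 1000 to 2000 UMIs to 29.8% at 10000 to 20000 UMIs. Whether deep cells differ in state or hold RNA of a second cell was not tested.

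Among cells of 2000 to 5000 UMIs, 1 of the close pairs came apart. cDC1 had too few such cells, so their steps to regulatory T cells and NK cells could not be examined there. In the Csf1rfl/fl tumor of run 1 the median was 9619 UMIs in cDC1 and 3894 in NK cells. C1q macrophages then had a lower share than Ly6c2 monocytes in 4 of 4 tumors, with differences of -1.13, -1.47, -1.93 and -2.71 points (mean -1.81 ± 0.680, exact p = 0.125, the smallest possible). CD4 against regulatory T cells stayed within the spread, with a mean difference of 1.19 ± 1.34 points and CD4 T cells above in 3 of 4 tumors (exact p = 0.25). A step of the order was lost there: CD4 T cells exceeded plasmacytoid dendritic cells by 1.10 ± 1.39 points and in 3 of 4 tumors (exact p = 0.25). Plasmacytoid dendritic cells (mean 21.9%) and regulatory T cells (mean 21.8%) then differed by less than their spread (exact p = 0.75). CD8 T cells stayed above NK cells by 3.65 points and Ly6c2 monocytes above neutrophils by 11.2 points, each in 4 of 4 tumors.

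**Figure D2:**
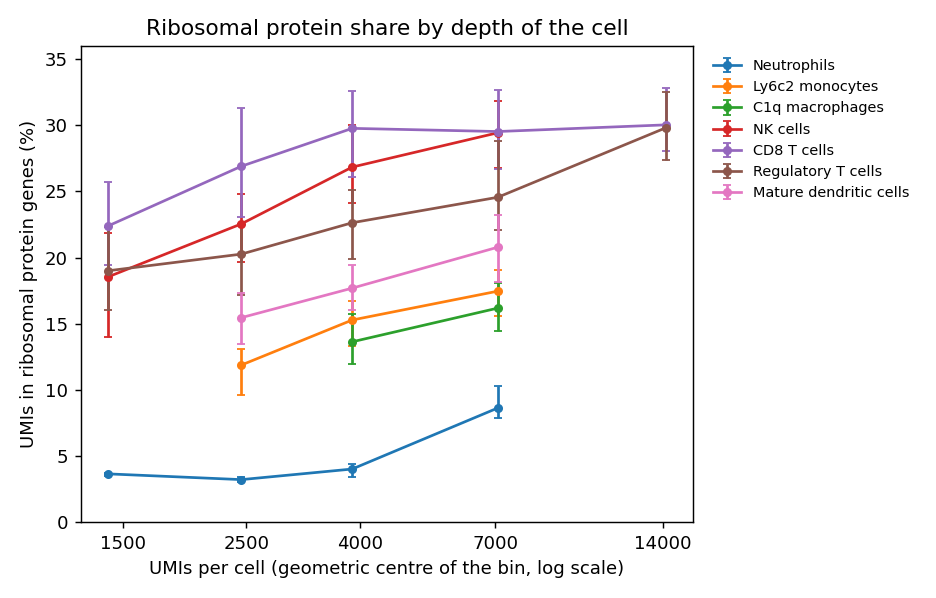
Percent of UMIs in ribosomal protein genes (y axis) by UMIs per cell (x axis, log scale, points at the centre of each bin) for 7 gates of kept cells, drawn where all 4 tumors have at least 20 cells, with the mean over tumors and bars from the lowest to the highest tumor. Neutrophils stay lowest in every bin they share with another gate. The lines of monocytes, macrophages, mature dendritic cells, NK cells and regulatory T cells climb with depth. That of CD8 T cells climbs up to the bin of 3000 to 5000 UMIs.

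Counts were spread over nearly all members. The 10 members with most UMIs, Rps29, Rpl41, Rpl37a, Rps24, Rps28, Rpl39, Rpl37, Rpl13, Rpl38 and Rps20, held 25.8% of the family's UMIs, from 3.98% for Rps29 to 2.06% for Rps20, and the small subunit as a whole held 44.8%. There were 79 members with at least 0.1% of the family each, and these are used for the comparisons of composition. The remaining 4 were the paralogs Rpl7l1 (0.0239%), Rpl3l (0.00424%), Rpl39l (0.00144%) and Rpl10l, which had 12 UMIs in all kept cells.

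All 79 members had their lowest mean level per 10000 UMIs in neutrophils among the 10 gates, as did 51.2% of the 9024 genes with at least 1000 UMIs and 40.3% of the 186 other genes at least as abundant as the rarest of the 79. The highest level was in CD8 T cells for 44 members (8.42% of the 9024 genes), in cDC1 for 23 (8.05%), in NK cells for 6 (6.93%), in plasmacytoid dendritic cells for 4 (15.6%) and in mature dendritic cells for 2 (10.3%). As a share of the family's own UMIs the members varied little between gates: the ratio of the highest to the lowest gate mean had a median of 1.48, and 71 members stayed under 2. The ratio of large-subunit to small-subunit UMIs lay between 1.09 and 1.17 in neutrophils and between 1.26 and 1.29 in NK cells over the 4 tumors, and these ranges did not overlap.

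The member whose share varied most was Rps27l, the paralog of the small-subunit gene Rps27 and a known target of p53. Mature dendritic cells had 22.02, 22.1, 24.4 and 22.4 UMIs of Rps27l per 10000 in the 4 tumors. cDC1 followed with 6.42 to 8.23 per 10000, CD8 T cells had 3.29 to 4.12 and neutrophils 0.532 to 0.826. Every mature dendritic cell value was thus above 2 times the highest of any other gate, and as a share of the family the ratio of mature dendritic cells to NK cells was 11.3.

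Rpl31, a protein near the peptide exit tunnel, had its highest level in plasmacytoid dendritic cells, with 27.7, 24.9, 27.0 and 29.5 UMIs per 10000. No other gate passed 11.9 per 10000 in any tumor. Rps19, known from Diamond-Blackfan anaemia, was highest in mature dendritic cells with 75.2, 56.2, 74.9 and 54.9 per 10000, against at most 47.5 elsewhere. In both genes the leading gate did not overlap any other.

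Rps9 and Rps27 took their largest part of the family in neutrophils. Rps9, a protein of the small-subunit body, had 24.4, 19.1, 23.7 and 20.8 UMIs per 10000 there, close to the 23.0 to 25.9 of C1q macrophages, so that it took 4.45% of the family's UMIs in neutrophils against 1.15% in NK cells. Rps27 had 18.7, 19.95, 21.9 and 22.1 per 10000 in neutrophils and 27.1 to 30.6 in C1q macrophages, and took 4.23% of the family in neutrophils. These 5 genes, Rps27l, Rpl31, Rps9, Rps19 and Rps27, were the most variable of the 79 by share of the family.

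For tests of single members, UMIs of a gate were summed per tumor, scaled with TMM factors, which set the typical gene to no change, and fitted with edgeR's quasi-likelihood test with the tumor as a block. Adjusted p-values are Benjamini-Hochberg values over all genes tested, and a gene was called at an adjusted p under 0.05. The whole family is a large part of the UMIs. The counts of members called between gates are therefore also given for summed UMIs without TMM factors, a scale that follows the raw share.

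T cells against C1q macrophages asked how lymphocytes differ from macrophages of the tumor. Of 82 members tested, 71 were higher in T cells, where 34.6% of all genes were called higher, and 4 were lower, where 32.8% of all genes were called lower. The median member was higher by 0.56 on the log2 scale against 0.06 for all genes, and without TMM factors 77 were higher and 3 lower, where 45.1% and 25.7% of all genes were called. Rps15a, a small-subunit protein, rose most, by 1.24 on the log2 scale (SE 0.07, edgeR adjusted p = 3.02e-11). Its level was 20.1 to 30.1 UMIs per 10000 in C1q macrophages and 62.0 to 97.6 in CD8 T cells, a part of the T cells fitted. Rpl13a, which can also leave the ribosome to silence messengers in interferon-treated monocytes, rose by 1.11 (SE 0.07, edgeR adjusted p = 2.62e-10), and Rpl36a rose by 0.97 (SE 0.08, edgeR adjusted p = 1.15e-08).

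The members lower in T cells were paralogs rather than main genes for the 3 largest falls. Rpl7l1 fell by 0.95 on the log2 scale (SE 0.11, edgeR adjusted p = 4.52e-07) and Rps27l by 0.76 (SE 0.09, edgeR adjusted p = 5.98e-07). Rpl3l had 53 UMIs in C1q macrophages and 6 in CD8 T cells, which are only a part of the T cells fitted. Its fitted difference was -4.45, a value that depends on the handling of such low counts. Scaled within the family alone, 21 members were higher and 16 lower, where 19.9% and 49.4% of all genes were called.

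Neutrophils against Ly6c2 monocytes compared the short-lived and the monocytic cells recruited from blood. Of 81 members tested, 76 were lower in neutrophils, where 37.3% of all genes were called lower, and 3 were higher, where 35.9% were called higher. The median member difference was -0.85 on the log2 scale, against -0.11 for all genes. The largest falls were those of Rps27l by 1.43 (SE 0.11, edgeR adjusted p = 3.84e-10), of Rpl10a, a large-subunit protein, by 1.28 (SE 0.10, edgeR adjusted p = 5.82e-10) and of Rps18 by 1.21 (SE 0.10, edgeR adjusted p = 2.31e-09). Rps18 had 2.35 to 6.07 UMIs per 10000 in neutrophils and 13.9 to 22.6 in Ly6c2 monocytes. Its levels did not overlap between the gates.

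The 3 members called higher in neutrophils were Rpl3l, Rps9 and Rps27, and for Rps9 and Rps27 the direction depended on the scaling. Rps9 was higher by 0.58 (SE 0.09, edgeR adjusted p = 1.56e-05) with TMM factors and lower by 0.45 without them (-0.45, adjusted p = 0.000166). Rps27 was higher by 0.37 (SE 0.09, edgeR adjusted p = 0.00143) with them and lower by 0.65 without them (-0.65, adjusted p = 1.10e-06). Leaving out the TMM factors moved the median of all genes from -0.11 to -1.13 in this comparison, and both genes lay above that median on either scale. Without TMM factors 80 members were lower and 1, Rpl3l, was higher, where 68.7% and 17.7% of all genes were called. Scaled within the family alone, 12 were higher and 34 lower, where 53.3% and 14.2% of all genes were called.

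C1q macrophages against Ly6c2 monocytes compared macrophages with their likely blood precursors, an origin that was not tested here. Of 81 members tested, 23 were lower in C1q macrophages, where 14.7% of all genes were called lower, and 4 were higher, where 11.3% were called higher. The differences were small, with a median of -0.11 on the log2 scale against 0.00 for all genes. Rps9 fell by 0.38 (SE 0.06, edgeR adjusted p = 9.05e-05), and Rplp0, the base of the ribosomal stalk, fell by 0.32 (SE 0.07, edgeR adjusted p = 0.0013). Rpl3l fell by 1.08 (SE 0.23, edgeR adjusted p = 0.00157). The largest rises were those of Rpl7l1 by 0.32 (SE 0.10, adjusted p = 0.0264), Rps27l by 0.31 (SE 0.08, adjusted p = 0.00448) and Rpl12 by 0.24 (SE 0.07, adjusted p = 0.0177). These counts were unstable: without TMM factors 4 members were lower and 4 higher (10.5% and 16% of all genes), without the tumor as a block 1 was lower and 0 higher (5.48% and 5.07%), and leaving out a tumor gave 5 to 15 lower. Scaled within the family alone, 4 were higher and 3 lower, where 13.5% and 8.49% of all genes were called.

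NK cells against T cells gave a count whose direction turned with the scaling. With TMM factors 38 of 80 members tested were higher in NK cells, where 15.8% of all genes were called higher, and 3 were lower, where 14.4% were called lower, with a median of 0.12 on the log2 scale. Without TMM factors 6 were higher and 16 lower, where 10.5% and 21.9% of all genes were called, so the count lower was near that of all genes. The family's share of UMIs was 27.5% ± 2.47 in NK cells and 27.8% ± 2.56 in T cells. Scaled within the family alone, 9 were higher and 15 lower, where 11% and 20.3% of all genes were called. Without the tumor as a block, 1 was higher and 0 lower, where 10.6% and 10.9% of all genes were called.

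Some members kept their side on both scales. Rpl10, one of the last proteins to enter the large subunit, had 22.2, 15.9, 21.6 and 16.5 UMIs per 10000 in NK cells and 13.6, 10.99, 15.1 and 10.9 in CD8 T cells. NK cells were above CD8 T cells in each tumor. Against the whole T cell gate Rpl10 was higher in NK cells by 0.79 (SE 0.05, edgeR adjusted p = 5.37e-09) with TMM factors and by 0.65 without them (adjusted p = 2.94e-08). Plasmacytoid dendritic cells, with 16.3 to 24.0 per 10000, and cDC1, with 15.5 to 22.02, had Rpl10 levels like those of NK cells. Rpl38, which was also higher on both scales (0.34 with and 0.20 without TMM factors), has a known part in the translation of Hox messengers, and Rps3 followed with 0.28 and 0.14. Rps19, Rps26 and Rpsa, the 40S protein also described as a laminin receptor, were lower in NK cells by 0.21, 0.16 and 0.15 (log2 differences of -0.21, -0.16 and -0.15) with TMM factors and lower without them.

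**Figure D3:**
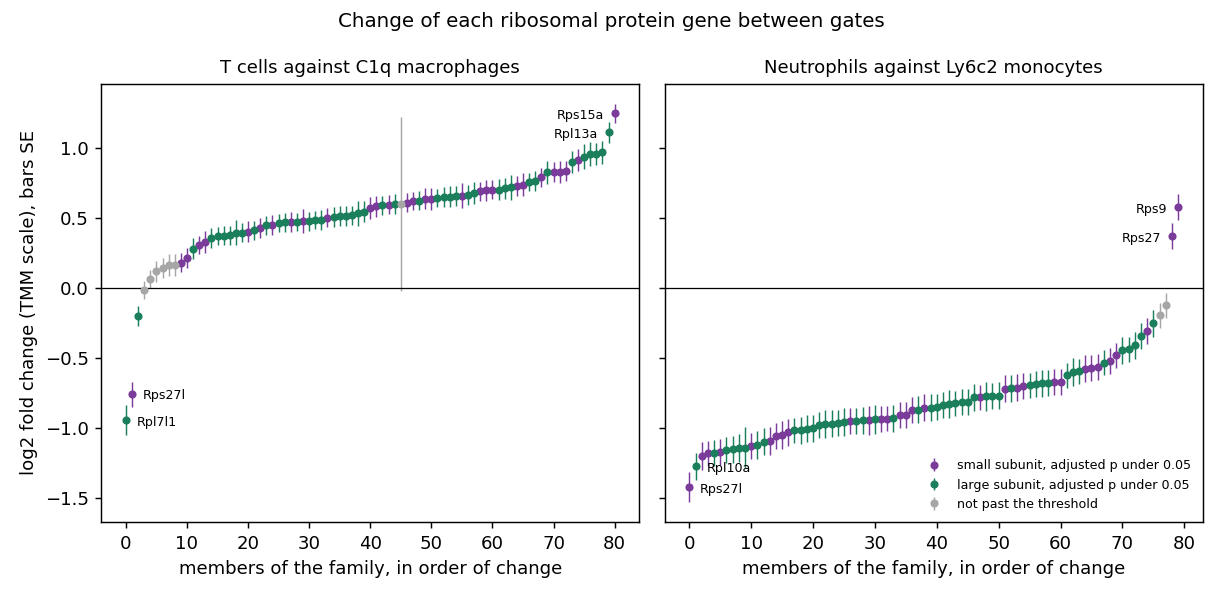
Log2 difference of each tested member with its SE as a bar (y axis, edgeR with TMM factors), members in order of value (x axis), for T cells against C1q macrophages and neutrophils against Ly6c2 monocytes, coloured by subunit where the adjusted p is under 0.05 and grey elsewhere, with Rpl3l left out for its low counts. Nearly all members lie above 0 on the left and below 0 on the right, where Rps9 and Rps27 lie above 0 on this scale but not without TMM factors, and the long grey bar is Rpl39l.

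Paralogs differed from their main genes. UMIs of Rps27l per 100 of Rps27 were 43.1 ± 2.76 (SD, n = 4 tumors) in mature dendritic cells, 17.9 ± 3.25 in cDC1, 17.6 ± 3.68 in C1q macrophages and 3.43 ± 0.762 in neutrophils. Rpl7l1, a relative of Rpl7, had 9.62 ± 1.04 UMIs per 100 of Rpl7 in C1q macrophages, 6.36 ± 0.271 in Ly6c2 monocytes and 2.67 ± 0.854 in CD4 T cells. For both pairs the leading gate did not overlap any other gate.

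Rpl22l1, a relative of Rpl22, which is known for its part in T cell development, had 38.4 ± 7.45 UMIs per 100 of Rpl22 in NK cells and 20.9 ± 4.82 in cDC1, the gate with the lowest ratio. In cDC1 the tumors ranged from 16.3 to 27.2 and in NK cells from 30.2 to 45.8, so these did not overlap. Neutrophils had 34.1 to 38.5 and C1q macrophages 25.5 to 37.4.

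Rpl3l, the striated-muscle relative of Rpl3, was seen in myeloid cells at low counts. Neutrophils had 404 UMIs in 360 of 5169 cells, at 0.302, 0.317, 0.301 and 0.323 per 10000 in the 4 tumors, Ly6c2 monocytes 0.126 to 0.184 per 10000 and mature dendritic cells 0.170 to 0.241. CD8 T cells had 6 UMIs in 2606 cells. Neutrophils were above every other gate in each tumor. Rpl3l lies at chr17:24727820-24736143 on the plus strand (GRCm38), and the next gene on that strand, Msrb1, begins 499 bases downstream. Msrb1, which was looked at after the values of Rpl3l were seen, had 14.2 to 16.7 UMIs per 10000 in neutrophils, 7.61 to 9.06 in Ly6c2 monocytes, 1.006 to 1.51 in mature dendritic cells and 0.388 to 0.545 in CD8 T cells. Its part in the counts of Rpl3l was not tested.

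Rpl39l, a relative of Rpl39 best known from the testis, had 501 UMIs in 240 kept cells. In CD8 T cells 160 of 176 UMIs came from the Csf1rfl/fl tumor of run 2, where 62 of 502 cells held them, against 3, 0 and 5 cells in the other tumors. That tumor alone carried the high value of the gate.

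**Figure D4:**
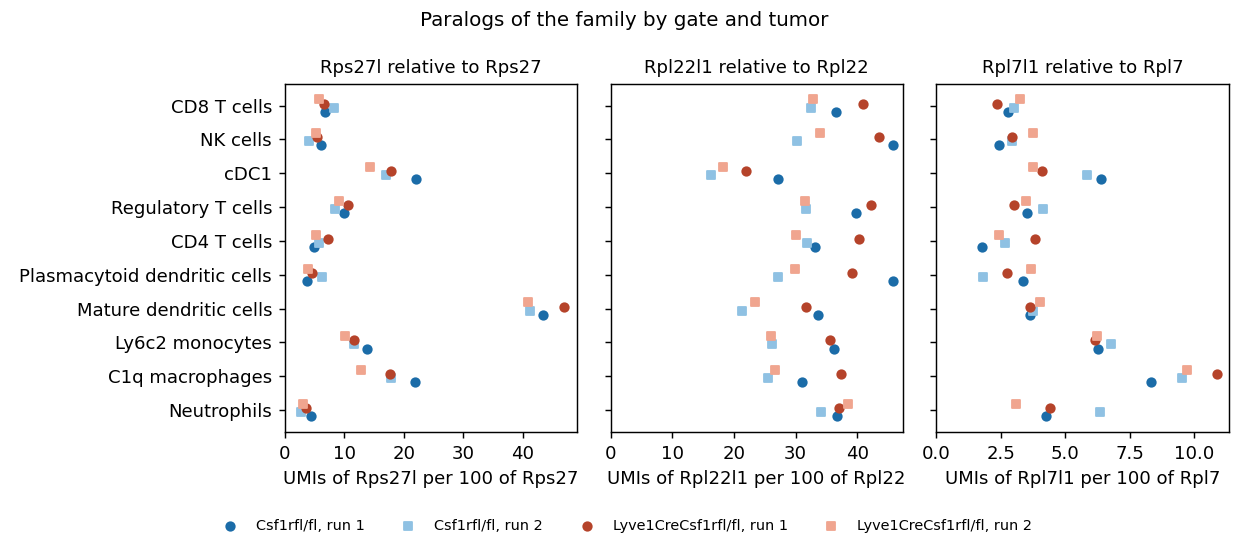
UMIs of Rps27l per 100 of Rps27, of Rpl22l1 per 100 of Rpl22 and of Rpl7l1 per 100 of Rpl7 (x axes) by gate (y axis), a point per tumor of kept cells. Mature dendritic cells stand apart for Rps27l with a mean of 43.1, cDC1 sit lowest for Rpl22l1 and C1q macrophages highest for Rpl7l1.

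Naive-type T cells that were not kept had the largest mean share of the gates with all 4 tumors, in a set that may be picked in part on this share. These cells, defined by at least 3 of 8 genes of the naive state (Lef1 and Ccr7 among them) and at most 1 of 8 effector genes, had 43.8%, 30.3%, 43.9% and 36.8% of UMIs in ribosomal protein genes in 34, 34, 42 and 1216 cells, a mean of 38.7% ± 6.50. B cells that were not kept had 37.0%, 25.7%, 34.8% and 30.3% in 223, 124, 100 and 2753 cells, a mean of 32.0% ± 4.9997. Most of these cells came from the Lyve1CreCsf1rfl/fl tumor of run 2, whose shares were below those of both run 1 tumors. Only the Csf1rfl/fl tumor of run 2 had smaller shares. There 47.1% of the naive-type and 54.8% of the B cells had a higher hashtag at least 3 times the lower. In the other tumors 91.0% to 100% did. The 78 plasma cells of the Lyve1CreCsf1rfl/fl tumor of run 2, the only such gate with enough cells, had 14.9% (95% Wilson interval 14.85 to 15.01, for counting error only).

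Compared with the other T cells that were not kept, naive-type T cells were higher by 16.3, 4.53, 15.3 and 6.13 points (mean 10.6 ± 6.09, 4 of 4 tumors, exact p = 0.125, the smallest possible). The authors named ribosomal gene signal as a reason for removal, so the not kept set may be picked in part on this share. The exact p is therefore not an independent test. Only 47.1% of the 34 naive-type cells of the Csf1rfl/fl tumor of run 2 had a higher hashtag at least 3 times the lower. With that ratio required this tumor had too few cells, and the other 3 gave 15.7, 15.1 and 3.98 points. With under 2.5% of UMIs from mitochondrial genes 1 tumor had enough cells, at 7.88 points. Against kept non-naive-type T cells the differences were 14.2, 5.32, 13.7 and 10.6 points. Median UMIs were 1874 to 3512 in naive-type and 3477 to 7496 in the other not kept T cells. Among cells of 1000 to 3000 UMIs the difference from kept T cells was 17.2 points in the 3 tumors with enough cells and the difference from not kept T cells was 14.9 and 1.70 points in 2 tumors. In the Lyve1CreCsf1rfl/fl tumor of run 2 the 55 naive-type T cells that were kept had 27.5% (95% Wilson interval 27.3 to 27.7), below the 36.8% of those that were not and 1.22 points above the 26.3% of the kept non-naive-type T cells there.

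Being kept did not go with 1 direction in the gates that both sets held. In both run 1 tumors the not kept neutrophils and CD8 T cells were lower than the kept ones, and in both run 2 tumors higher. Ly6c2 monocytes showed the reverse. Not kept neutrophils differed from kept ones by 0.723 points in the mean, with 2 of 4 tumors higher (exact p = 0.5), CD8 T cells by 1.12 points with 2 of 4 higher (exact p = 0.875), the largest difference being 6.82 points in the Lyve1CreCsf1rfl/fl tumor of run 2, and regulatory T cells by -0.931 points with 1 of 4 higher (exact p = 0.375). With a higher hashtag at least 3 times the lower, not kept CD8 T cells were higher by 3.21 ± 4.19 points in the mean and in 3 of 4 tumors (exact p = 0.25). NK cells that were not kept were lower in 3 of 3 tumors, by 3.49 points in the mean.

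Cycling cells, with at least 2 of 6 genes of the cell cycle such as Mki67 and Top2a, differed from other cells in opposite ways in the T cell gates when cells of all depths were summed. In regulatory T cells the cycling cells were higher by 3.57, 5.15, 4.77 and 4.87 points (mean 4.59 ± 0.698, exact p = 0.125). In CD8 T cells they were lower in every tumor, with differences of -2.17, -0.382, -1.53 and -1.27 points (mean -1.34 ± 0.743, exact p = 0.125). The difference between these differences was 5.93 ± 0.353 points (exact p = 0.125). Its sign in 4 of 4 tumors follows from the signs above and is not a further result. NK cells were in between at 0.708 points, higher in 4 of 4 tumors.

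Cycling regulatory T cells had median UMIs of 6187 to 7746 and the others 2358 to 2720, and the part of this gap in the contrast was not tested. Among regulatory T cells of 3000 to 5000 UMIs the cycling cells were lower by 2.41 points in the mean of the 2 tumors with enough cells (-0.696 and -4.12), and at 5000 to 10000 UMIs they were higher by 0.836 points in 2 tumors. Among CD8 T cells the cycling cells were lower at both depths, with -4.81 points in 3 tumors and -3.37 points in 4 tumors (exact p = 0.125).

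**Figure D5:**
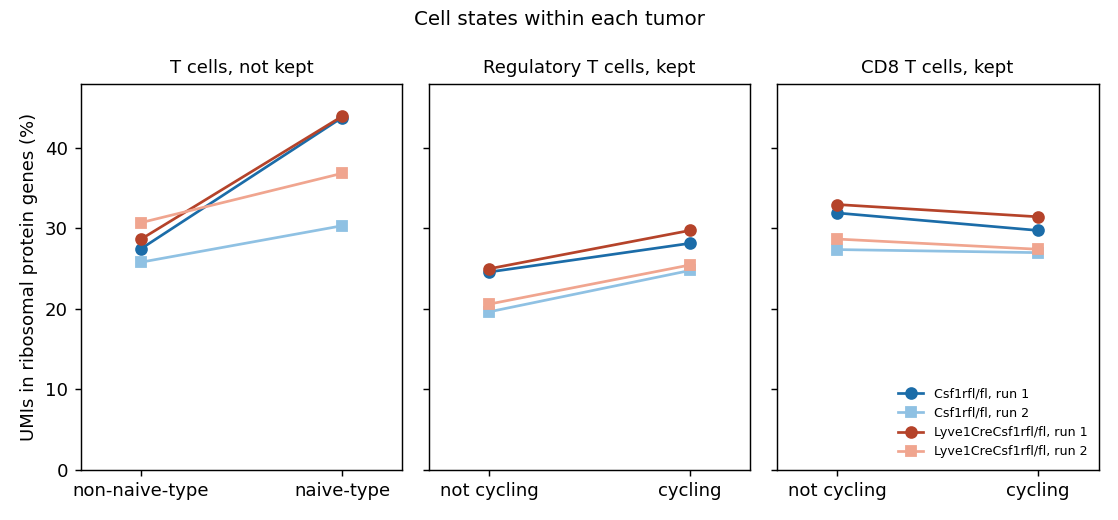
Percent of UMIs in ribosomal protein genes (y axis) in pairs of cell states, with a line per tumor: naive-type against other T cells that were not kept, and cycling against other kept cells of the regulatory and CD8 T cell gates at all depths. Lines climb to naive-type T cells by 4.53 to 16.3 points and to cycling regulatory T cells by 3.57 to 5.15 points, and drop slightly for CD8 T cells. Ribosomal gene signal may have played a part in which cells were not kept.

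The family's share differed between the runs. In 10 of 10 gates both run 1 tumors had a larger share of summed UMIs than both run 2 tumors, with differences within a genotype of 0.620 to 4.87 points. The median neutrophil went the other way, with 3.05% and 3.28% in run 1 and 3.32% and 3.44% in run 2. Of the members, 56 of 81 in neutrophils, 55 of 81 in Ly6c2 monocytes and 48 of 82 in C1q macrophages had both run 1 tumors above both run 2 tumors, against 22.1%, 16.7% and 15.7% of all genes tested. In Cd209a dendritic cells, with 19 cells in 1 of the run 1 tumors, it was 56 of 80, in T cells 56 of 81 and in NK cells 57 of 80, against 15.6%, 13.6% and 14.3% of all genes. The median member was higher in run 1 by 0.27 to 0.37 on the log2 scale over these gates, where the median of all genes was -0.22 to -0.07. Several abundant members went the other way. In CD8 T cells Rps29 had 93.7 and 103 UMIs per 10000 in run 1 and 115 and 126 in run 2. Rpl41 had 78.5 and 84.3 in run 1 and 92.9 and 94.4 in run 2 there, and Rps28 and Rpl38 were also higher in both run 2 tumors. Gm42418, a locus that overlaps ribosomal RNA, took 1.56% and 1.76% of UMIs in CD8 T cells of run 1 and 2.81% and 3.09% in run 2, and was higher in run 2 in each of the 10 gates. Its part in the run difference was not tested.

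Between genotypes no member was called. In the Lyve1CreCsf1rfl/fl tumors the family's share was higher within both runs in 6 gates (by only 0.0421 and 0.0322 points in run 1 in NK cells and plasmacytoid dendritic cells), lower within both runs in C1q macrophages (differences of -2.43 and -0.622 points) and of opposite sign in 3 gates, and over all gates the differences within a run lay between -2.43 and 2.77 points. Among cells of 2000 to 5000 UMIs the C1q macrophage differences were -0.738 and 0.107 points, so that the direction in run 2 turned, and those over median cells were -2.50 and 0.181. C1q macrophages that were not kept had differences of 1.11 and 0.337 points, but in run 1 only 16 of 64 and 19 of 82 of these cells had a higher hashtag at least 3 times the lower, so their tumor is uncertain. Of the 6 gates with a higher share, CD8 and regulatory T cells were higher in both runs also among cells of 2000 to 5000 UMIs. CD4 T cells (-0.130 points in run 1), plasmacytoid dendritic cells (-0.216 in run 1) and NK cells (-0.636 in run 2) were not, and cDC1 had too few such cells. The smallest exact p among the 10 gates was 0.667, where 2 tumors against 2 cannot go below 0.333. This test ignores the run. With both run 1 tumors above both run 2 tumors in every gate, it could not fall under 0.667 here. The edgeR test called 0 of 81 members in neutrophils, 0 of 81 in Ly6c2 monocytes, 0 of 82 in C1q macrophages, 0 of 80 in Cd209a dendritic cells, 0 of 81 in T cells and 0 of 80 in NK cells, where it called 0%, 0%, 0.0121%, 0.0725%, 0% and 0% of all genes, and DESeq2 also called 0 in each. Without the tumor of 19 cells the Cd209a dendritic cell fit also called 0 of 80. At an unadjusted p under 0.05 there was 1 member in C1q macrophages, where 3.3% of all genes passed, and 0 in the other gates, where 0.888% passed in neutrophils, 1.54% in Ly6c2 monocytes, 3.45% in Cd209a dendritic cells, 1.47% in T cells and 1.06% in NK cells.

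The run was then entered as a replicate block, since same-run tumors deviated together in every gate. With it 1 member was called in C1q macrophages, Rpl39l, higher in Lyve1CreCsf1rfl/fl by 3.39 on the log2 scale (SE 0.68, edgeR adjusted p = 0.00085). It rested on 0 and 7 UMIs in the Csf1rfl/fl tumors and 14 and 5 in the Lyve1CreCsf1rfl/fl tumors, found in 0, 3, 5 and 2 cells. With the block 1.12% of all genes were called in C1q macrophages, 0.417% in Ly6c2 monocytes, 0.148% in neutrophils and 0% in the other gates. At an unadjusted p under 0.05 there were then 16 of 82 members in C1q macrophages and 8.57% of all genes, 1 of 81 in Ly6c2 monocytes and 5.53% of all genes, and 0 in neutrophils, Cd209a dendritic cells, T cells and NK cells, where 4.31%, 4.68%, 3.48% and 2.52% of all genes passed.

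Other genes of translation and of ribosome making were followed by lists. In T cells against C1q macrophages, where 34.6% of all genes were called higher and 32.8% lower, 17 of the 20 translation genes, elongation factors and the like, were higher and 0 lower, and 16 of the 29 genes of ribosome biogenesis were higher and 1 lower. In neutrophils against Ly6c2 monocytes, where 35.9% were higher and 37.3% lower, 2 translation genes were higher and 16 lower, and 2 of 28 biogenesis genes were higher and 17 lower. Without TMM factors these lists kept their directions, with 19 translation and 19 biogenesis genes higher in T cells (45.1% of all genes) and 20 and 28 lower in neutrophils (68.7%).

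In C1q macrophages against Ly6c2 monocytes, where 11.3% of all genes were higher and 14.7% lower, 12 of 28 biogenesis genes were higher and 0 lower, and without TMM factors 17 were higher and 0 lower (16% and 10.5% of all genes). Translation genes had no such direction, with 3 of 20 higher and 6 lower, and 4 higher and 3 lower without TMM factors. In NK cells against T cells, where 15.8% were higher and 14.4% lower, 4 translation genes were higher and 1 lower, and 3 biogenesis genes were higher and 1 lower. Without TMM factors 0 translation genes were higher and 5 lower, and 2 biogenesis genes were higher and 4 lower, where 10.5% and 21.9% of all genes were called.

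The mitochondrial ribosome, whose 78 listed proteins serve the organelle, was lower in neutrophils than in Ly6c2 monocytes for 71 genes and higher for 2, where 37.3% and 35.9% of all genes were called, and without TMM factors for 77 and 1, where 68.7% and 17.7% were. In T cells against C1q macrophages 39 were lower and 6 higher, where 32.8% and 34.6% of all genes were called, but without TMM factors 18 were lower and 16 higher, where 25.7% and 45.1% were. In C1q macrophages against Ly6c2 monocytes 15 were higher and 5 lower, where 11.3% and 14.7% were called, and without TMM factors 20 and 4, where 16% and 10.5% were. In NK cells against T cells 7 were higher and 5 lower, both under the 15.8% and 14.4% of all genes, and without TMM factors the balance turned to 3 higher and 10 lower, where 10.5% and 21.9% were called. Its summed share of UMIs was 0.193% ± 0.0323 in neutrophils, 0.606% ± 0.0756 in C1q macrophages, 0.569% ± 0.0400 in CD8 T cells and 0.355% ± 0.0187 in naive-type T cells that were not kept. The biogenesis genes summed to 0.295% ± 0.0463 in CD8 T cells, 0.210% ± 0.0311 in naive-type T cells that were not kept, 0.0627% ± 0.00456 in mature dendritic cells and 0.0411% ± 0.00459 in neutrophils.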

How the data were processed

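The authors mapped reads to mm10 with Cell Ranger 6.0.1 and deposited the raw count of UMIs per gene and cell and the raw count of hashtag antibodies per cell, both without normalization. The values of their corrected table, which the authors made with SCTransform in Seurat, are whole numbers but not raw, and this deposited score was not analysed: the table was read only for the names of kept cells, and the table of hashtag names only for tumor labels. The members, lists and gates were chosen with earlier results of these data known. No doublet caller was run here. Labels name 2 gene expression and 2 hashtag libraries, and the tumor of a cell comes from its hashtag.

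Shares are summed UMIs per tumor and gate with n = 4 tumors, tested by exact two-sided permutation. Sums were tested with edgeR 4.0.16 (filterByExpr, TMM, quasi-likelihood), Benjamini-Hochberg adjusted over all genes, with DESeq2 1.42.0 as an alternative. In simulated counts edgeR recovered 49.5% of 200 genes changed by 1 on the log2 scale in the T cell genotype design (11590 genes) and 80% in the T cell against C1q macrophage design (11058 genes). Of the simulated calls, 7.48% and 6.43% were false in these designs. Smaller changes were not simulated. Members were named by a rule: the 10 with most UMIs, paralog pairs, up to 3 largest rises and falls that were called and one-way in every tumor in each comparison, and the 5 most variable by share. Rps4l was not analysed here, and an alternative that adds genes to the subunit ratio is not reported here. Same-run tumors deviated together over genes, with correlations of 0.194 to 0.410 in 6 gates. The tumors are separate mice, and p-values between cell types rest on 4 of them. Intervals cover counting error only.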

Additional observations from a re-analysis of the deposited data

Results flagged for a closer look

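In regulatory T cells the cycling cells had a larger ribosomal protein share, by 4.59 points in the mean, and in CD8 T cells a smaller one, by a mean difference of -1.34 points, with opposite directions in each of the 4 tumors when cells of all depths were summed. At 3000 to 5000 UMIs the regulatory T cell difference turned to -2.41 points in the 2 tumors with enough cells, the direction of CD8 T cells. The genotype difference in share (Lyve1CreCsf1rfl/fl minus Csf1rfl/fl, mean over runs) was -1.53 points in C1q macrophages and went the same way in both runs, but among cells of 2000 to 5000 UMIs it was -0.738 points in run 1 and 0.107 in run 2. It was 0.986 points in T cells, 0.755 in NK cells, 1.75 in cDC1 and 0.434 in plasmacytoid dendritic cells, higher in both runs in each, though in run 1 by only 0.0421 points in NK cells and 0.0322 in plasmacytoid dendritic cells. Among cells of 2000 to 5000 UMIs T cells were again higher in both runs, NK cells were lower in run 2 (-0.636 points), plasmacytoid dendritic cells were lower in run 1 (-0.216 points), and cDC1 had too few cells. The difference between C1q macrophages and these gates was not tested.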

How the results depend on the processing

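Of the values reported under other settings, 162 stayed within the spread between tumors or within 1.5 times the count, 40 moved and 1 reversed. Leaving out a tumor gave 126 that stayed and 10 that moved. The settings for depth, hashtag and mitochondrial share in the state, genotype and gate order comparisons and the list counts without TMM factors were chosen after seeing the data. With cells of 2000 to 5000 UMIs the share was 3.59% in neutrophils, 14.8% in Ly6c2 monocytes, 12.97% in C1q macrophages, 17.3% in mature dendritic cells and 21.8% in regulatory T cells, and the differences became -1.81 points for C1q macrophages minus Ly6c2 monocytes, 1.19 for CD4 minus regulatory T cells and 3.65 for CD8 T cells minus NK cells. The median over cells was 3.27% in neutrophils and 22.1% in regulatory T cells. Without mitochondrial genes, Malat1, Gm42418, S100a8 and S100a9 in the denominator neutrophils had 6.34% and not kept non-naive-type T cells 30.3%. Cycling minus other regulatory T cells reversed to -2.41 points at 3000 to 5000 UMIs and was 0.836 at 5000 to 10000 UMIs, and for CD8 T cells it was -4.81 and -3.37. The cause was not tested.

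Member counts moved as follows, with the share of all genes called in parentheses. With library sizes from the family alone, T cells against C1q macrophages gave 21 higher and 16 lower (19.9% and 49.4% of all genes), neutrophils against Ly6c2 monocytes 12 higher and 34 lower (53.3% and 14.2%), C1q macrophages against Ly6c2 monocytes 3 lower (8.49%), and NK cells against T cells 9 higher and 15 lower (11% and 20.3%). Without TMM factors there was 1 higher in neutrophils (17.7% of all genes), 4 lower in C1q macrophages against Ly6c2 monocytes (10.5%), and 6 higher and 16 lower in NK cells (10.5% and 21.9%). DESeq2 gave 1 higher and 8 lower in C1q macrophages against Ly6c2 monocytes (4.92% and 7.32%) and 17 higher and 1 lower in NK cells against T cells (10.8% and 9.81%). With no filter on low counts 36 were lower in C1q macrophages against Ly6c2 monocytes (9.27%) and 6 lower in NK cells (10.8%). For the genotype in C1q macrophages, 1 member was called without TMM factors, with family library sizes, with no filter and with the run as replicate block, which changed no other genotype call. With no replicate block for the tumor, C1q macrophages against Ly6c2 monocytes gave 0 higher and 1 lower (5.07% and 5.48%), and NK cells against T cells gave 1 higher and 0 lower (10.6% and 10.9%).

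Leaving out each tumor gave 68 to 72 higher and 3 to 4 lower members in T cells against C1q macrophages, and 75 to 76 lower in neutrophils. In C1q macrophages against Ly6c2 monocytes it gave 0 to 3 higher and 5 to 15 lower: 8 lower (9.61%) and 0 higher without the Csf1rfl/fl tumor of run 1, 15 lower (9.22%) and 1 higher without that of run 2, 5 lower (12.6%) without the Lyve1CreCsf1rfl/fl tumor of run 1 and 12 lower (13.5%) without that of run 2. NK cells against T cells gave 22 to 38 higher and 1 to 4 lower, the smallest counts without the Lyve1CreCsf1rfl/fl tumor of run 1 (11.8% and 11.2%). The genotype gave 0 to 1 in C1q macrophages (1 without the Lyve1CreCsf1rfl/fl tumor of run 2) and 0 to 1 in T cells (1 without the Csf1rfl/fl tumor of run 1), where the lone tumor was assumed to vary like the others. With 2 tumors a genotype and no run block, the spread between runs limits what the genotype test can detect.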
